A study of Homo sapiens with 24 samples.

Results

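The genes described here are NRF2, the transcription factor that switches on antioxidant defence and whose gene is NFE2L2, together with KEAP1, SQSTM1 and 7 antioxidant genes commonly counted among the targets of NRF2. The 10 genes (NFE2L2, KEAP1, NQO1, GCLC, GCLM, TXNRD1, SRXN1, TXN, PRDX1 and SQSTM1) were picked by name. They are among the 58735 genes of each count table, and earlier results of these data were known at the choice. All 10 had enough counts to be tested. Messenger RNA was measured in 24 libraries of HEK293T, a human embryonic kidney line transformed with adenovirus genes and carrying the SV40 large T antigen. The cells were unedited (WT), MIR210-KO, which lacks the gene of the hypoxia-induced microRNA miR-210, or MIR210HG-KO, which lacks the long non-coding RNA gene that hosts it. Each genotype was kept for 24 h at 21% oxygen (normoxia) or at 1% oxygen (hypoxia), with 4 libraries in each of the 6 groups. All groups shared the same high-glucose medium with serum and antibiotics. Whether a knockout is 1 clone or a pool, and whether the 4 libraries of a group came from separate cultures, is not given in the labels. P-values therefore measure only the spread between these libraries, which may be technical, and a difference between genotypes cannot be told apart from a difference between the cell lines made.

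In unstressed cells KEAP1 holds NRF2 in the cytoplasm and hands it to a ubiquitin ligase built on CUL3, so that the protein is made and destroyed continuously. Oxidants or electrophiles modify cysteines of KEAP1, NRF2 escapes and enters the nucleus, and with small MAF proteins it binds antioxidant response elements of its target genes. SQSTM1, also called p62, is an autophagy receptor that can bind KEAP1 and draw it away from NRF2, and it is itself a target. Because NRF2 is controlled mainly through the stability of the protein, the level of NFE2L2 messenger RNA does not measure its activity. No protein was measured here.

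The core of the antioxidant response element is written TGACNNNGC. It was searched on both strands of the RefSeq promoter windows of assembly GRCh38.p14, which run from 250 bases before to 50 bases after each annotated start. Windows were found for 9 of the 10 genes, 14 windows in all, and not for PRDX1. The core was found in 3 of the 9 genes, KEAP1, GCLM and TXNRD1. By window, it was found in 4 of these 14 windows and in 13.3% of all 35116 promoter windows. A further TXNRD1 match, after the start, is not printed. With the looser core TGANNNNGC, 6 of the 9 genes and 41.8% of all windows held a match. The matches below are shown because these are the letters that NRF2 is known to read. Each is printed 5′ to 3′ on the strand that carries the core, with the core in capitals and 10 bases on either side. A match is a description of the letters and not a measured binding site.
KEAP1, chr19:10502784-10502812, plus strand: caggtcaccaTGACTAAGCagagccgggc
KEAP1, chr19:10502807-10502835, minus strand: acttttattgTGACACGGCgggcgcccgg
GCLM, chr1:93909446-93909474, plus strand: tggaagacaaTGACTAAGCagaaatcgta
TXNRD1, chr12:104215670-104215698, plus strand: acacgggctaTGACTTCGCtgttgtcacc
TXNRD1, chr12:104286920-104286948, minus strand: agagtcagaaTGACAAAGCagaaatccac

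The plus-strand match of KEAP1 and the match of GCLM had the same 9 core letters, TGACTAAGC, and shared 17 of 29 printed bases. The mature miR-210 arm that MIR210-KO was made to remove is printed next with its seed, bases 2 to 8, in capitals, because the seed pairs with target messenger RNAs.
hsa-miR-210-3p: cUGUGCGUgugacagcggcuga
A match of 7 or 8 bases was a complement of bases 2 to 8, or a complement of bases 2 to 7 followed by an A. It was found in the 3' UTR of 0 of the 10 genes, searched in 1 transcript each from GENCODE release 29. Such a match was found in 3.38% of 18896 genes. That says only that these letters are not in the UTRs searched.

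Depth ran from 25556776 to 37858947 counts per library, and no pair of libraries held identical counts. The 7 markers of HEK293T searched (KRT8, KRT18, VIM, NEFL, NEFM, PAX2 and LHX1) were counted in all 24 libraries. Among 8 markers of blood, vessel, liver and connective tissue, PTPRC, CD3E, HBB, PECAM1, CDH5 and DCN stayed below 0.3 CPM in every group mean, whereas ALB and COL1A1 reached 3.08 and 33.0 CPM. CPM, the depth-normalised unit used throughout, is a gene's count divided by the TMM-scaled library total and multiplied by a constant. The 8 markers summed to 28.04 to 33.0 CPM in normoxia WT, 30.4 to 34.8 in normoxia MIR210-KO and 14.05 to 24.3 in normoxia MIR210HG-KO. In hypoxia the sums were 18.8 to 20.6 in WT, 32.4 to 33.7 in MIR210-KO and 14.1 to 16.3 in MIR210HG-KO. KRT8, an epithelial keratin, was highest in MIR210-KO, at group means of 99.7 and 118 CPM against 20.4 to 28.8 CPM in the other 4 groups. NEFL and NEFM were lowest in MIR210HG-KO, at 64.9 and 84.4 CPM and at 38.2 and 51.2 CPM. Elsewhere they stood at 135 to 264 and 121 to 237 CPM. PAX2 (2.32 and 1.97 CPM) and KRT18 (34.8 and 25.3 CPM) were also lowest there, against 4.33 to 6.22 and 37.3 to 61.0 CPM. For VIM and LHX1 the MIR210HG-KO means overlapped with those of the other groups. The part of these differences in the results was not tested. MIR210HG had 0 counts in all 8 MIR210HG-KO libraries and 3.48 to 20.7 CPM in the other group means, and nothing here checked the label MIR210-KO. Within hypoxia WT, replicates 1 and 3 differed from 2 and 4, with 1.62% and 1.55% of counts from non-coding genes against 2.49% and 2.25%. Together with hypoxia MIR210-KO 1 and normoxia MIR210HG-KO 3 they are the 4 libraries that stood apart in earlier results of these data, and values without these 4 libraries are given where they change a call or a direction. The normoxia and hypoxia libraries came in separate tables, so oxygen level and table cannot be told apart, and in bulk RNA fewer cells of a kind cannot be told apart from less RNA per cell.

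Per kilobase of transcript, TXN (thioredoxin) and PRDX1 (peroxiredoxin 1) were the most abundant in normoxia WT, at 264 ± 6.77 and 256 ± 3.42 CPM per kilobase (SD, n = 4). TXNRD1 stood at 29.03 ± 0.54, KEAP1 at 23.0 ± 1.31, SQSTM1 at 11.9 ± 0.13, GCLM at 8.57 ± 0.49, NFE2L2 at 7.32 ± 0.37 and GCLC at 5.85 ± 0.39 CPM per kilobase. SRXN1 and NQO1 were lowest, at 1.99 ± 0.13 and 1.49 ± 0.15 CPM per kilobase. Across the 6 group means NQO1 varied most, by 6.48-fold between lowest and highest, followed by SRXN1 (2.87-fold), PRDX1 (2.38-fold), KEAP1 (2.36-fold) and TXN (2.14-fold). GCLC varied least, by 1.24-fold.

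**Figure D1:**
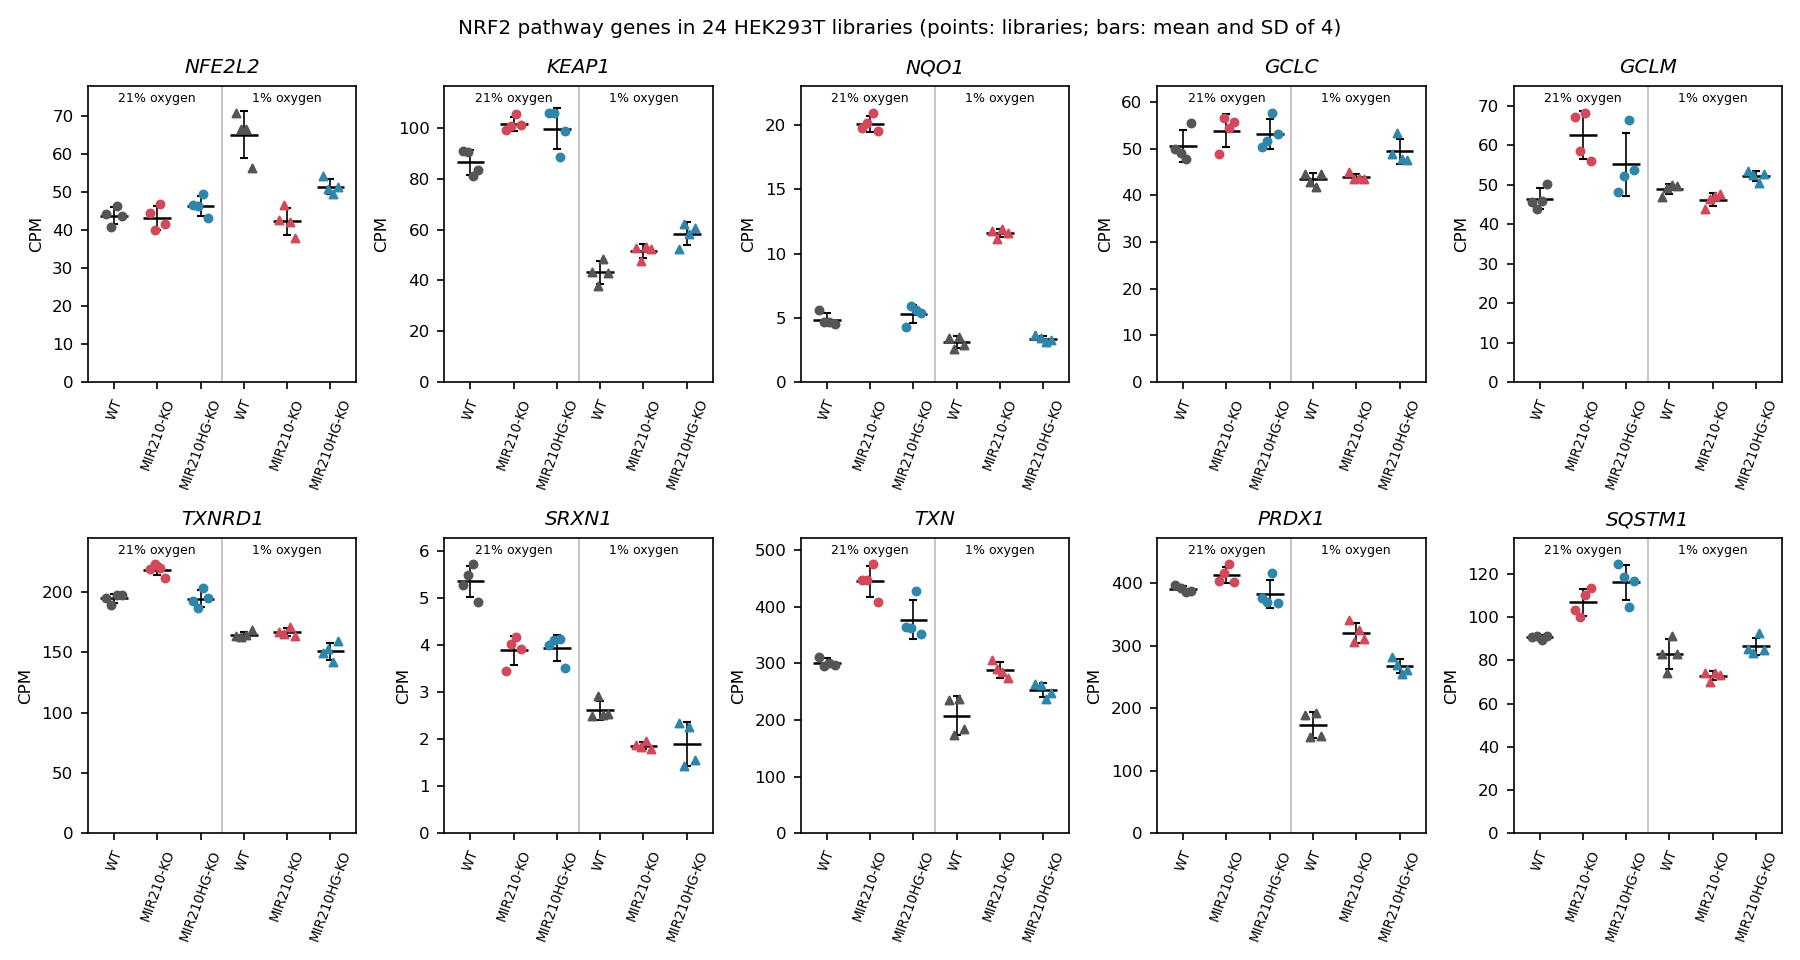
Expression of the 10 genes in CPM (vertical axes, each starting at 0) in the 24 libraries, by genotype and oxygen level (horizontal axes); points are libraries, bars the mean and SD of 4. NQO1 is high in MIR210-KO at both oxygen levels, KEAP1 is lower in all 12 hypoxia libraries than in all 12 normoxia libraries, and NFE2L2 is highest in hypoxia WT.

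Lowered oxygen moved most of the 10 genes down. In WT 7 of 10 were called lower (adjusted p under 0.05 in edgeR's quasi-likelihood test) and 1 higher, where 30.7% of all genes tested were called lower and 29.6% higher. In MIR210-KO 9 were called lower and 0 higher, against 29.5% and 29.3% of all genes. In MIR210HG-KO 7 were called lower and 0 higher, against 28.3% and 25.7%. The 0 called higher by edgeR compare with 0 (MIR210-KO) and 1 (MIR210HG-KO) at an unadjusted p under 0.05, and DESeq2 called 0 and 1. The median log2 change of the 10 genes was -0.39 in WT, -0.49 in MIR210-KO and -0.47 in MIR210HG-KO, where all genes had medians of 0.00, 0.04 and 0.03. KEAP1, NQO1, TXNRD1, SRXN1, TXN and PRDX1 were called lower in all 3 genotypes. Upper quartile scaling raised the median of all genes to 0.10, 0.18 and 0.16, and the share of calls that were higher from 49.8% to 64.1% in MIR210-KO and from 47.6% to 63.0% in MIR210HG-KO. Under it 6, 9 and 7 of the 10 genes were still called lower.

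Between genotypes the 10 genes moved in both directions. In normoxia, MIR210-KO had 6 of the 10 genes called higher and 1 lower than WT, against 22.6% and 21.6% of all genes. MIR210HG-KO had 4 called higher and 1 lower than WT, against 15.6% and 19.6%. In hypoxia MIR210-KO had 4 called higher and 3 lower than WT, against 28.2% and 27.7% of all genes. MIR210HG-KO had 4 higher and 3 lower than WT in hypoxia, against 24.4% and 30.2%. Median log2 differences from WT were 0.20 and 0.10 in normoxia and 0.02 and 0.11 in hypoxia, for MIR210-KO and MIR210HG-KO. Set against MIR210-KO, MIR210HG-KO had 0 genes called higher by edgeR and 4 lower in normoxia, where 23.4% and 25.8% of all genes were called. DESeq2 called 1 higher there, and 0 were higher at an unadjusted p under 0.05. Leaving out the 4 libraries that stood apart gave 1 higher and 5 lower, with SQSTM1 (0.17, adjusted p = 0.00261) and PRDX1 (-0.15, adjusted p = 0.000675) added. Of all 19952 genes tested, 10764 were then called, and 48.4% of these calls were higher. In hypoxia that comparison had 5 higher and 4 lower, against 26% and 29% of all genes, and 2 higher and 4 lower under upper quartile scaling.

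**Figure D2:**
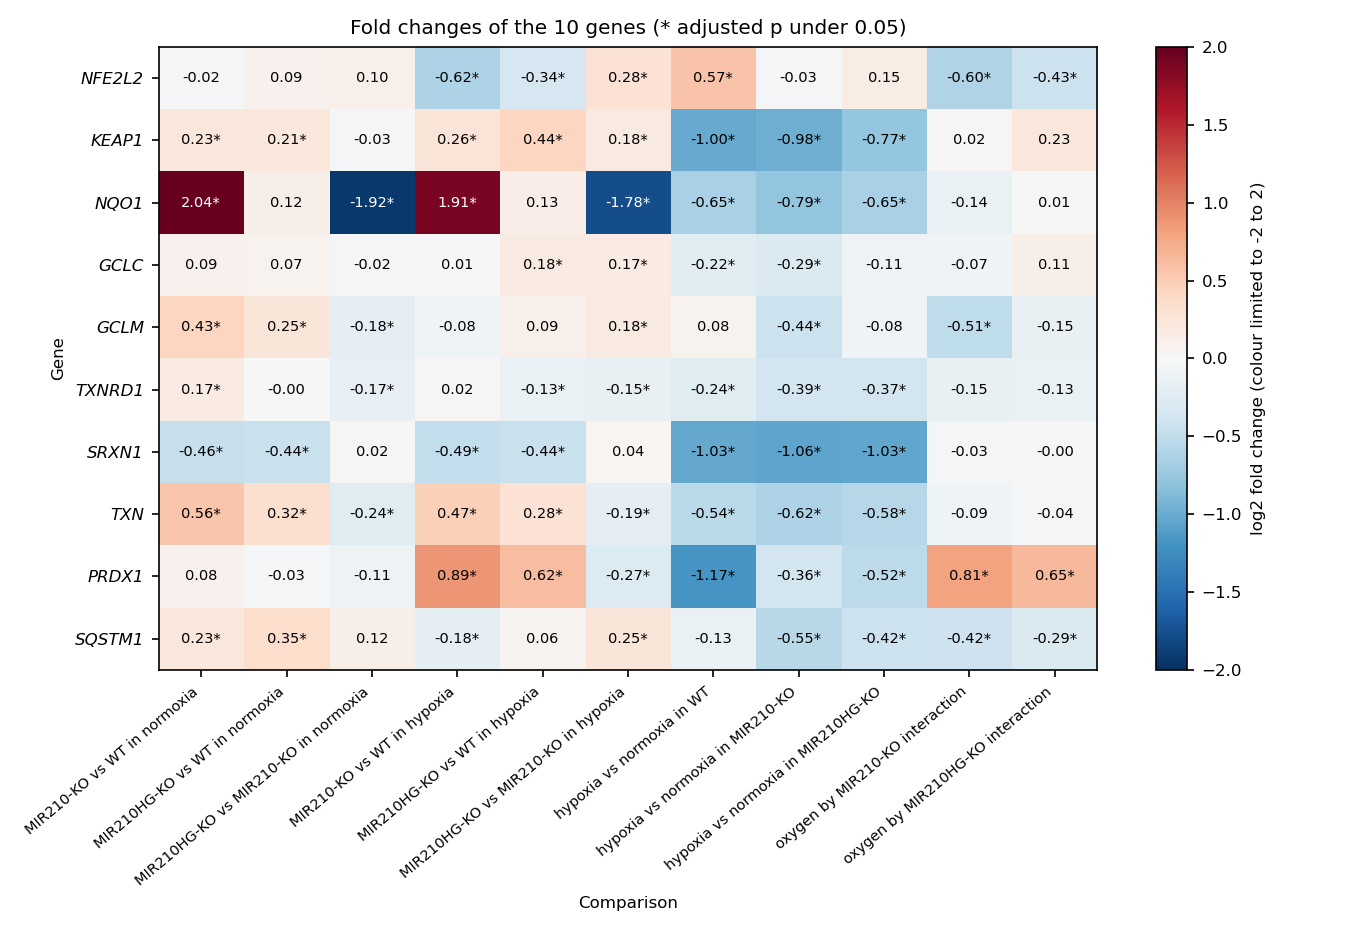
Log2 fold changes of the 10 genes (rows) in 11 comparisons (columns), with an asterisk where the adjusted p of edgeR's test was under 0.05. The columns of hypoxia against normoxia are mostly blue, meaning lower. The strongest red and blue cells are those of NQO1 where MIR210-KO is compared with WT or with MIR210HG-KO.

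The response to oxygen differed by genotype for a minority of the 10 genes. An interaction is the log2 response of a knockout to hypoxia minus that of WT. In MIR210-KO, 1 gene had a higher and 3 a lower interaction, against 12.5% and 14% of all genes. In MIR210HG-KO, 1 was higher and 2 lower, against 10.2% and 12.2%. PRDX1 was the gene with the higher interaction in both, NFE2L2 and SQSTM1 had lower ones in both, and GCLM had a lower one in MIR210-KO. Without the 4 libraries that stood apart, MIR210-KO had 1 higher and 4 lower, and MIR210HG-KO had 3 higher and 2 lower, with KEAP1 and TXN added. Of all 19952 genes tested, 5966 and 4804 were then called, and 49.2% and 47.5% of these calls were higher.

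NFE2L2 messenger RNA rose in hypoxia in WT, did not pass the test in MIR210-KO, and was at the edge of it in MIR210HG-KO. The gene (ENSG00000116044) lies on the minus strand of chromosome 2, from 177227595 to 177392697. In normoxia it stood at 44.2, 40.9, 46.3 and 43.7 CPM in WT, at 44.5, 40.03, 46.9 and 41.5 CPM in MIR210-KO, and at 46.6, 46.4, 49.6 and 43.2 CPM in MIR210HG-KO. These 3 groups overlapped. In hypoxia it stood at 70.9, 66.7, 66.7 and 56.4 CPM in WT, 42.6, 46.6, 42.2 and 37.9 CPM in MIR210-KO, and 54.2, 50.8, 49.5 and 51.4 CPM in MIR210HG-KO. All 4 hypoxia WT libraries lay above the other 20 libraries. The rise in WT was 0.57 ± 0.07 on the log2 scale (SE, adjusted p = 1.36e-08), a change of 48.8%. In MIR210-KO the change was -0.03 ± 0.07 (adjusted p = 0.733), and in MIR210HG-KO it was 0.15 ± 0.07 (adjusted p = 0.0722). The MIR210HG-KO change was called under 7 of 8 other settings, at 0.15 to 0.28, and not with the low-count filter dropped (0.14, adjusted p = 0.141). It also passed the threshold without normoxia MIR210HG-KO 3 (0.18, adjusted p = 0.0344), hypoxia MIR210HG-KO 3 (0.18, adjusted p = 0.0474), hypoxia WT 2 (0.16, adjusted p = 0.0484) or hypoxia WT 4 (0.16, adjusted p = 0.0308).

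The smaller NFE2L2 response of the knockouts passed the test of the difference itself. The interaction was -0.60 ± 0.10 in MIR210-KO (adjusted p = 2.04e-05) and -0.43 ± 0.10 in MIR210HG-KO (adjusted p = 0.00169). Without the 4 libraries that stood apart, the rise in WT was 0.49 ± 0.07, and the interactions were -0.52 ± 0.09 and -0.31 ± 0.09 (adjusted p = 1.83e-05 and 0.0105). In hypoxia NFE2L2 was thus lower than WT by the test in MIR210-KO (-0.62 ± 0.07, adjusted p = 2.89e-09) and in MIR210HG-KO (-0.34 ± 0.07, adjusted p = 8.39e-05). The annotated span of NFE2L2 overlaps 11 genes, 5 of them on the opposite strand. Their counts came to 263% of those of NFE2L2, with 250% from the largest. The part of mixed reads in the NFE2L2 values was not tested. NFE2L2 shares 54 bases with AGPS, a gene on the opposite strand, and the strand setting of the counting is not stated. AGPS moved the other way in WT, falling by 0.15 ± 0.05 in hypoxia (adjusted p = 0.0132).

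KEAP1, the repressor, fell in hypoxia in every genotype. The gene (ENSG00000079999) lies on the minus strand of chromosome 19, from 10486120 to 10503741. In normoxia its libraries read 90.9, 90.6, 81.1 and 83.7 CPM in WT, 99.3, 101, 106 and 101 CPM in MIR210-KO, and 106, 106, 88.8 and 98.9 CPM in MIR210HG-KO. In hypoxia they read 43.4, 37.7, 48.4 and 43.1 CPM in WT, 52.7, 47.5, 53.3 and 52.6 CPM in MIR210-KO, and 52.2, 62.3, 58.4 and 60.8 CPM in MIR210HG-KO. The 12 hypoxia libraries all lay below the 12 normoxia libraries. The log2 change was -1.004 ± 0.07 in WT (adjusted p = 8.00e-14), -0.98 ± 0.07 in MIR210-KO (adjusted p = 2.37e-13) and -0.77 ± 0.07 in MIR210HG-KO (adjusted p = 4.57e-11). The interactions missed the threshold, at 0.02 ± 0.10 for MIR210-KO (adjusted p = 0.895) and 0.23 ± 0.10 for MIR210HG-KO (adjusted p = 0.0872). The latter passed it without hypoxia WT 3 (0.29, adjusted p = 0.0249) and without the 4 libraries that stood apart (0.27, adjusted p = 0.0139), and also with upper quartile factors (0.27) and the gene length covariate (0.28). KEAP1's neighbours moved the same way to a smaller extent, with a median of -0.28 over 212 tested genes within 5 Mb in WT. Within 2 Mb the median was -0.09 over 78 tested genes.

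Both knockouts held more KEAP1 than WT, by small amounts. In normoxia MIR210-KO was higher by 0.23 ± 0.07 (adjusted p = 0.00561) and MIR210HG-KO by 0.21 ± 0.07 (adjusted p = 0.0174). The normoxia MIR210HG-KO call was lost on leaving out WT 3 (0.18, adjusted p = 0.069), WT 4 (0.19, adjusted p = 0.0518), MIR210HG-KO 1 (0.18, adjusted p = 0.0611) or MIR210HG-KO 2 (0.18, adjusted p = 0.0653). In hypoxia the differences were 0.26 ± 0.07 (adjusted p = 0.00225) and 0.44 ± 0.07 (adjusted p = 3.04e-06), and they were 0.34 and 0.53 without the 4 libraries that stood apart. The groups overlapped between MIR210HG-KO and WT in normoxia and between MIR210-KO and WT in hypoxia.

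With NFE2L2 up and KEAP1 down, the ratio of the pair was highest in hypoxia WT. Per kilobase, NFE2L2 over KEAP1 was 0.319 ± 0.032 in normoxia WT, 0.267 ± 0.016 in MIR210-KO and 0.295 ± 0.038 in MIR210HG-KO (SD, n = 4). In hypoxia it was 0.957 ± 0.136 in WT (range 0.822 to 1.11), 0.519 ± 0.069 in MIR210-KO (0.454 to 0.617) and 0.558 ± 0.064 in MIR210HG-KO (0.513 to 0.652). The hypoxia WT libraries did not overlap with any other group, and the hypoxia knockouts did not overlap with the normoxia libraries, which ended at 0.359. These ratios describe messenger RNA and were not tested.

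**Figure D3:**
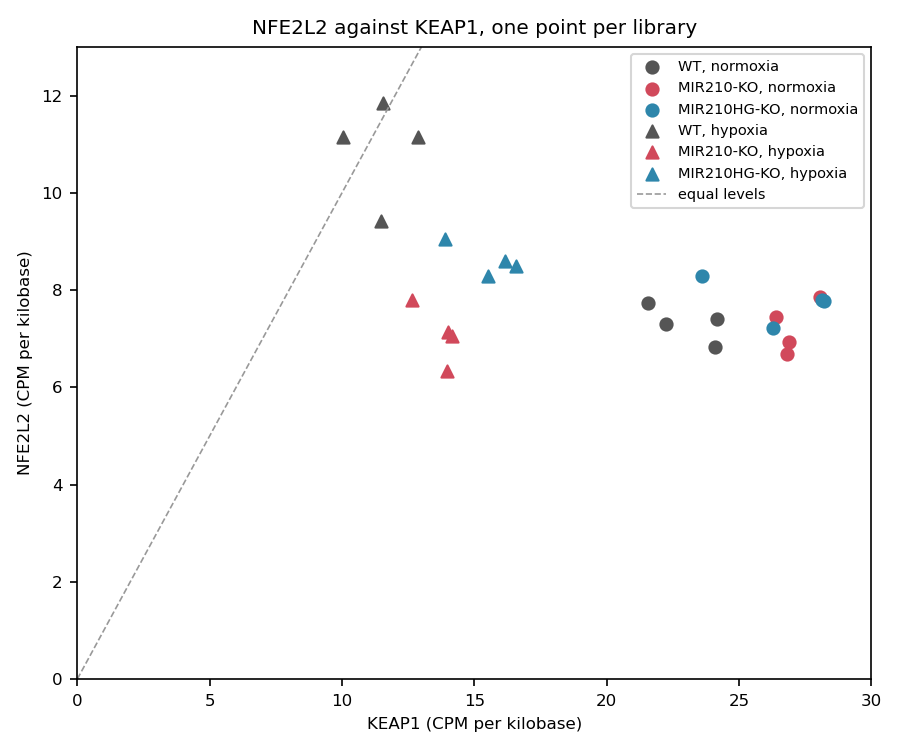
NFE2L2 (vertical axis) against KEAP1 (horizontal axis), both in CPM per kilobase, with 1 point per library and the dashed line at equal levels. The 4 hypoxia WT libraries lie near the line, the 8 hypoxia knockout libraries lie below it, and the 12 normoxia libraries lie farthest to the right.

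SQSTM1, the autophagy receptor that binds KEAP1, fell in hypoxia in the knockouts and started from a higher level there. The gene (ENSG00000161011) lies on the plus strand of chromosome 5, from 179806398 to 179838078. In normoxia it stood at 90.9, 91.4, 89.3 and 91.4 CPM in WT, 103, 99.9, 110.2 and 113 CPM in MIR210-KO, and 124, 118, 105 and 116 CPM in MIR210HG-KO. In hypoxia it stood at 83.0, 74.2, 91.2 and 82.9 CPM in WT, 74.2, 69.9, 74.3 and 73.3 CPM in MIR210-KO, and 85.2, 83.5, 92.4 and 84.6 CPM in MIR210HG-KO. All 8 normoxia knockout libraries lay above all WT libraries, and in hypoxia WT overlapped with both knockouts. Relative to WT in normoxia it was higher by 0.23 ± 0.06 in MIR210-KO (adjusted p = 0.00168) and by 0.35 ± 0.06 in MIR210HG-KO (adjusted p = 1.56e-05).

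The SQSTM1 change in hypoxia was -0.55 ± 0.06 in MIR210-KO (adjusted p = 2.45e-09) and -0.42 ± 0.06 in MIR210HG-KO (adjusted p = 3.44e-07). In WT it was -0.13 ± 0.06 (adjusted p = 0.0541), which passed the threshold without hypoxia WT 3 (-0.18, adjusted p = 0.00898), without normoxia MIR210HG-KO 1 or 3 (-0.13 in both cases, adjusted p = 0.0495 and 0.0324), and without the 4 libraries that stood apart (-0.21, adjusted p = 0.000886). The interactions were -0.42 ± 0.08 for MIR210-KO (adjusted p = 0.000333) and -0.29 ± 0.08 for MIR210HG-KO (adjusted p = 0.0112), and stood at -0.35 and -0.26 without those 4. In hypoxia MIR210-KO differed from WT by -0.18 ± 0.06 (adjusted p = 0.00933), a call lost without WT 3 (-0.13, adjusted p = 0.0562), without the 4 libraries that stood apart (-0.12, adjusted p = 0.082), under upper quartile scaling and with the gene length covariate. MIR210HG-KO differed from WT in hypoxia by 0.06 ± 0.06 (adjusted p = 0.387), and by 0.14 without the 4 libraries (adjusted p = 0.0272). SQSTM1 overlaps MRNIP by 2946 bases and MGAT4B by 555, both on the opposite strand, and their counts came to 192% of those of SQSTM1, so its values are uncertain where reads of the pairs could be mixed. MRNIP had interactions of the opposite sign, 0.48 ± 0.08 and 0.24 ± 0.08 (adjusted p = 4.65e-05 and 0.0341). MGAT4B fell in hypoxia, by -0.88, -0.73 and -0.60 in WT, MIR210-KO and MIR210HG-KO, each ± 0.08 (adjusted p at most 6.02e-08). Its interactions were not called (0.15 ± 0.11 and 0.28 ± 0.11, adjusted p = 0.326 and 0.0531). The part of mixed reads in the SQSTM1 values was not tested.

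NQO1, a quinone reductase often used as a readout of NRF2, was about 4-fold more abundant in MIR210-KO than in WT and not in MIR210HG-KO. The gene (ENSG00000181019) lies on the minus strand of chromosome 16, from 69706996 to 69726951. In normoxia its libraries read 5.60, 4.66, 4.68 and 4.52 CPM in WT, 19.8, 20.2, 21.0 and 19.5 CPM in MIR210-KO, and 4.32, 5.91, 5.59 and 5.37 CPM in MIR210HG-KO. In hypoxia they read 3.42, 2.60, 3.54 and 2.86 CPM in WT, 11.8, 11.2, 11.9 and 11.6 CPM in MIR210-KO, and 3.68, 3.46, 3.14 and 3.24 CPM in MIR210HG-KO. All 8 MIR210-KO libraries lay above all 16 others, while WT and MIR210HG-KO overlapped at each oxygen level. MIR210-KO exceeded WT by 2.04 ± 0.10 in normoxia (4.12-fold, adjusted p = 3.42e-17) and by 1.91 ± 0.10 in hypoxia (3.75-fold, adjusted p = 1.54e-16). MIR210HG-KO differed from WT by 0.12 ± 0.11 (adjusted p = 0.423) and 0.13 ± 0.11 (adjusted p = 0.358), and the hypoxia difference was 0.31 ± 0.14 without the 4 libraries that stood apart (adjusted p = 0.0559). The difference between the knockouts was tested directly, and MIR210HG-KO was lower by -1.92 ± 0.10 in normoxia and -1.78 ± 0.10 in hypoxia (adjusted p = 6.54e-17 and 1.03e-15).

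NQO1 fell in hypoxia in each genotype. The log2 change was -0.65 ± 0.11 in WT (adjusted p = 6.40e-06), -0.79 ± 0.09 in MIR210-KO (adjusted p = 6.77e-09) and -0.65 ± 0.11 in MIR210HG-KO (adjusted p = 9.68e-06). The interactions were -0.14 ± 0.14 and 0.01 ± 0.16 (adjusted p = 0.521 and 0.983), so a difference in response was not called. Without the 4 libraries that stood apart the change in WT was -0.84 ± 0.13, and MIR210-KO exceeded WT in hypoxia by 2.08 ± 0.13. The 118 tested genes within 5 Mb of NQO1 had a median difference of -0.01 between MIR210-KO and WT at both oxygen levels.

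GCLC and GCLM encode the catalytic and the modifier subunit of glutamate-cysteine ligase, which performs the rate-limiting step of glutathione synthesis. GCLM was the more variable. In normoxia it stood at 45.6, 44.0, 46.0 and 50.2 CPM in WT, 67.3, 58.7, 68.2 and 56.0 CPM in MIR210-KO, and 48.1, 52.2, 66.5 and 53.8 CPM in MIR210HG-KO. In hypoxia it stood at 46.9, 49.1, 49.8 and 49.8 CPM in WT, 43.9, 46.3, 47.1 and 47.8 CPM in MIR210-KO, and 53.5, 52.5, 50.4 and 52.6 CPM in MIR210HG-KO. The normoxia MIR210-KO libraries lay above all WT libraries, and in hypoxia MIR210-KO overlapped with WT. MIR210-KO exceeded WT in normoxia by 0.43 ± 0.07 (adjusted p = 1.31e-05) and had a difference of -0.08 ± 0.07 in hypoxia (adjusted p = 0.358). GCLM fell in hypoxia by the test in MIR210-KO, with a change of -0.44 ± 0.07 (adjusted p = 6.31e-06), with an interaction of -0.51 ± 0.10 (adjusted p = 0.000356). In WT and MIR210HG-KO the changes were 0.08 ± 0.07 (adjusted p = 0.39) and -0.08 ± 0.07 (adjusted p = 0.381). MIR210HG-KO exceeded WT in normoxia by 0.25 ± 0.07 (adjusted p = 0.00856), and without MIR210HG-KO 3, its highest library, the difference was 0.14 (adjusted p = 0.0799).

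GCLC (ENSG00000001084) kept within a narrow range. Its group means were 50.6 ± 3.36, 53.9 ± 3.50 and 53.3 ± 3.19 CPM in normoxia and 43.5 ± 1.37, 43.9 ± 0.68 and 49.4 ± 2.76 CPM in hypoxia, for WT, MIR210-KO and MIR210HG-KO (SD, n = 4). It fell in hypoxia in WT (-0.22 ± 0.06, adjusted p = 0.00188) and MIR210-KO (-0.29 ± 0.06, adjusted p = 8.16e-05). The change in MIR210HG-KO was -0.11 ± 0.06 (adjusted p = 0.125), and the interaction of 0.11 ± 0.08 missed the threshold (adjusted p = 0.368). The WT call was lost under upper quartile scaling, at -0.13. In normoxia MIR210-KO and MIR210HG-KO differed from WT by 0.09 ± 0.06 and 0.07 ± 0.06 (adjusted p = 0.233 and 0.365). In hypoxia MIR210-KO differed from WT by 0.01 ± 0.06 (adjusted p = 0.847). MIR210HG-KO exceeded WT there by 0.18 ± 0.06 (adjusted p = 0.00841), and the libraries of these groups did not overlap. The ratio of GCLM to GCLC per kilobase went from 1.46 ± 0.05 to 1.80 ± 0.09 in WT and from 1.86 ± 0.28 to 1.68 ± 0.08 in MIR210-KO between normoxia and hypoxia, without a test.

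TXN, the small disulfide-reducing protein thioredoxin, was higher in both knockouts and lower in hypoxia. The gene (ENSG00000136810) lies on the minus strand of chromosome 9, from 110243811 to 110256640. In normoxia it stood at 312, 295, 302 and 296 CPM in WT, 448, 448, 475 and 409 CPM in MIR210-KO, and 364, 363, 428 and 352 CPM in MIR210HG-KO. In hypoxia it stood at 236, 174, 238 and 184 CPM in WT, 307, 290.0, 284 and 274 CPM in MIR210-KO, and 264, 262, 237 and 249 CPM in MIR210HG-KO. In hypoxia WT the libraries fell into 2 pairs, with 1 and 3 above 2 and 4. Only the hypoxia WT and MIR210HG-KO libraries overlapped among the comparisons with WT. TXN exceeded WT by 0.56 ± 0.08 in normoxia MIR210-KO (adjusted p = 2.99e-07) and by 0.32 ± 0.08 in normoxia MIR210HG-KO (adjusted p = 0.00118). In hypoxia the differences were 0.47 ± 0.08 (adjusted p = 3.62e-06) and 0.28 ± 0.08 (adjusted p = 0.00237). Without the 4 libraries that stood apart they were 0.66 ± 0.05 and 0.50 ± 0.05.

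TXN changed in hypoxia by -0.54 ± 0.08 in WT (adjusted p = 3.84e-07), -0.62 ± 0.08 in MIR210-KO (adjusted p = 2.82e-08) and -0.58 ± 0.08 in MIR210HG-KO (adjusted p = 1.45e-07). Without the 4 libraries the change in WT was -0.75 ± 0.05, and the interaction of MIR210HG-KO went from -0.04 ± 0.11 (adjusted p = 0.836) to 0.24 ± 0.07 (adjusted p = 0.00417). The TXN interaction of MIR210HG-KO thus turned direction with those libraries. The 7 annotated TXN pseudogenes together had 0.0319% of the counts of TXN.

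TXNRD1, the selenoenzyme that recycles thioredoxin with NADPH, fell in hypoxia in all genotypes. Its means (ENSG00000198431) were 195 ± 3.63, 218 ± 4.59 and 195 ± 6.98 CPM in normoxia and 165 ± 2.43, 167 ± 3.47 and 151 ± 7.03 CPM in hypoxia, for WT, MIR210-KO and MIR210HG-KO. The changes were -0.24 ± 0.04 (adjusted p = 2.28e-05), -0.39 ± 0.04 (adjusted p = 7.25e-09) and -0.37 ± 0.04 (adjusted p = 2.66e-08), and no hypoxia library overlapped with a normoxia library of its genotype. MIR210-KO exceeded WT in normoxia by 0.17 ± 0.04 (adjusted p = 0.00276) and stood 0.02 ± 0.04 from it in hypoxia (adjusted p = 0.764). The interaction for MIR210-KO missed the threshold (-0.15 ± 0.06, adjusted p = 0.0805) and passed it without the 4 libraries that stood apart (-0.16, adjusted p = 0.0424), in DESeq2 (-0.16) and with the gene length covariate (-0.15). In hypoxia MIR210HG-KO differed from WT by -0.13 ± 0.04 (adjusted p = 0.0157), a call lost without hypoxia WT 4 (-0.11, adjusted p = 0.0773), MIR210HG-KO 1 (-0.11, adjusted p = 0.0808) or MIR210HG-KO 3 (-0.09, adjusted p = 0.144). That call was also lost under 4 of 8 other settings, at -0.11 with RLE factors, -0.10 with upper quartile factors, -0.10 with no low-count filter and -0.09 with only the groups compared. The same-strand gene EID3 shares 1467 bases with TXNRD1 and had at most 4.84% of its counts.

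PRDX1, a peroxiredoxin that reduces hydrogen peroxide and is itself reduced by thioredoxin, had the largest difference in response between genotypes among the 10 genes. It (ENSG00000117450) lies on the minus strand of chromosome 1, from 45511036 to 45523047. In normoxia it stood at 397, 391, 385 and 387 CPM in WT, 402, 416, 429.6 and 402 CPM in MIR210-KO, and 376, 369.8, 416 and 367 CPM in MIR210HG-KO. In hypoxia it stood at 189, 155, 193 and 156 CPM in WT, 341, 305, 325 and 311 CPM in MIR210-KO, and 281, 269, 255 and 262 CPM in MIR210HG-KO. The 3 hypoxia groups did not overlap, with WT lowest and MIR210-KO highest, and hypoxia WT again split into 1 and 3 above 2 and 4. PRDX1 changed by -1.17 ± 0.06 in WT (adjusted p = 1.43e-16), a change of -55.6%. The change was -0.36 ± 0.06 in MIR210-KO (adjusted p = 6.17e-06) and -0.52 ± 0.06 in MIR210HG-KO (adjusted p = 1.39e-08).

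The PRDX1 interactions were 0.81 ± 0.09 for MIR210-KO (adjusted p = 1.73e-08) and 0.65 ± 0.09 for MIR210HG-KO (adjusted p = 1.45e-06). Without the 4 libraries that stood apart the change in WT was -1.33 ± 0.05, and the interactions were 0.93 ± 0.06 and 0.85 ± 0.06. In normoxia the knockouts differed from WT by 0.08 ± 0.06 (adjusted p = 0.305) and -0.03 ± 0.06 (adjusted p = 0.751). With the gene length covariate the MIR210-KO difference was 0.17 ± 0.04 and was called (adjusted p = 0.000984). In hypoxia they exceeded it by 0.89 ± 0.06 (adjusted p = 8.04e-14) and 0.62 ± 0.06 (adjusted p = 3.71e-10). The direct test put MIR210HG-KO below MIR210-KO in hypoxia, at -0.27 ± 0.06 (adjusted p = 0.000411). MMACHC shares 2347 bases with PRDX1 on the opposite strand and had 8.6% as many counts. It also fell in hypoxia, by -0.79 ± 0.07 in WT, and its interactions were not called (-0.12 ± 0.10 and 0.14 ± 0.09, adjusted p = 0.379 and 0.297).

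SRXN1 (sulfiredoxin), which reactivates peroxiredoxins whose cysteine has been over-oxidised, was scarcer than PRDX1 in every group and fell by about the same factor in each genotype. It (ENSG00000271303) lies on the minus strand of chromosome 20, from 646615 to 653370. In normoxia it stood at 5.29, 5.50, 5.72 and 4.93 CPM in WT, 3.46, 4.04, 4.18 and 3.92 CPM in MIR210-KO, and 4.01, 4.11, 4.14 and 3.52 CPM in MIR210HG-KO. In hypoxia it stood at 2.49, 2.93, 2.52 and 2.53 CPM in WT, 1.88, 1.84, 1.96 and 1.79 CPM in MIR210-KO, and 2.35, 1.43, 2.26 and 1.57 CPM in MIR210HG-KO. Every WT library exceeded every knockout library at the same oxygen level. The changes in hypoxia were -1.03 ± 0.13 in WT, -1.06 ± 0.14 in MIR210-KO and -1.03 ± 0.14 in MIR210HG-KO (adjusted p = 4.15e-08, 1.33e-07 and 2.13e-07). The interactions were -0.03 ± 0.19 and 0.00 ± 0.18 (adjusted p = 0.935 and 0.99).

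MIR210-KO had less SRXN1 than WT by -0.46 ± 0.13 in normoxia (adjusted p = 0.0043) and -0.49 ± 0.14 in hypoxia (adjusted p = 0.00392). MIR210HG-KO differed by -0.44 ± 0.13 in normoxia (adjusted p = 0.00809) and -0.44 ± 0.14 in hypoxia (adjusted p = 0.00857), and the hypoxia call was lost without hypoxia MIR210HG-KO 2 (-0.32, adjusted p = 0.056). With no low-count filter the MIR210HG-KO calls were lost in normoxia (-0.40, adjusted p = 0.0665) and in hypoxia (-0.42, adjusted p = 0.0628), and with only the groups compared the hypoxia call was lost too (-0.42, adjusted p = 0.0782). The surroundings of the gene differed between the knockouts. The 54 tested genes within 5 Mb had a median of -0.45 in normoxia and -0.51 in hypoxia between MIR210-KO and WT, close to SRXN1 itself. Between MIR210HG-KO and WT their median was -0.01 in normoxia and -0.06 in hypoxia. The part of the neighbouring segment in the lower SRXN1 of MIR210-KO was not tested. Among the other 9 genes the neighbour medians for MIR210-KO against WT in normoxia lay between -0.03 and 0.19.

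**Figure D4:**
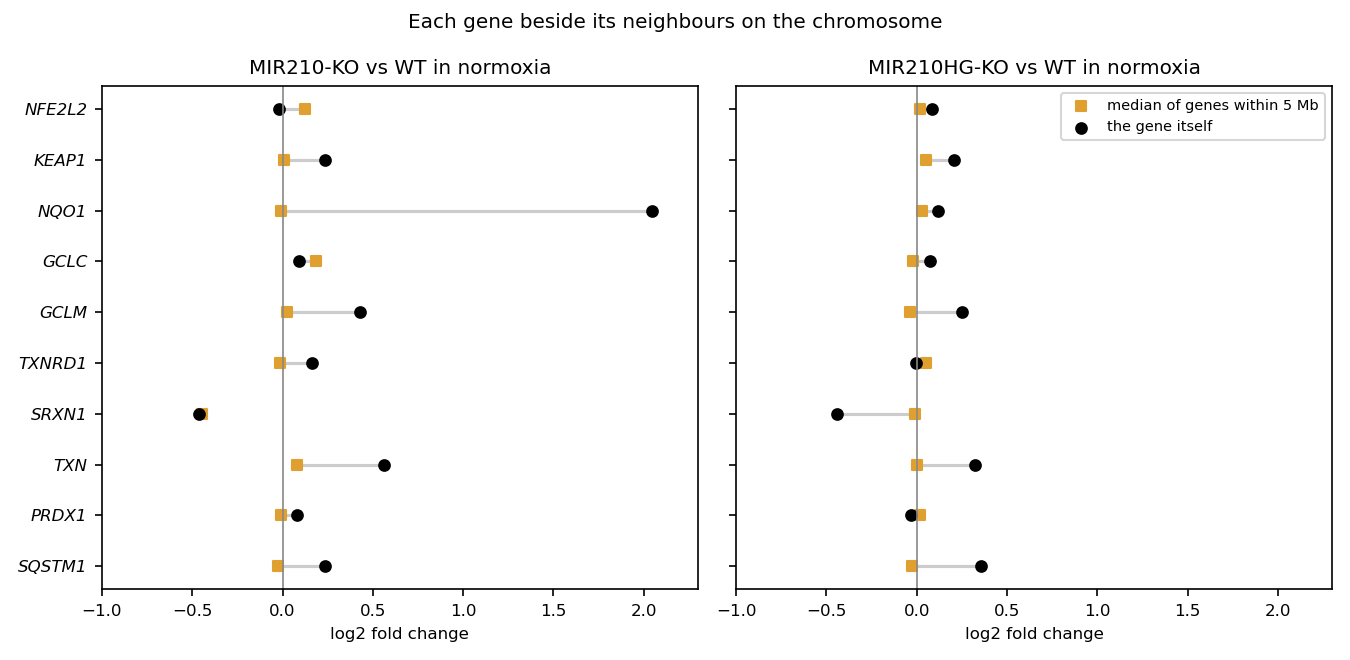
Log2 fold change (horizontal axis) of each of the 10 genes (black circles) and the median of the tested genes within 5 Mb of it (orange squares), for MIR210-KO and MIR210HG-KO against WT in normoxia. SRXN1 and its neighbours coincide in MIR210-KO at -0.46 and -0.45, and lie apart in MIR210HG-KO at -0.44 and -0.01.

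The 86 other antioxidant genes were grouped in 5 lists, and 80 of them had enough counts to be tested. ABCC3, AKR1B10, AKR1C1, AKR1C2, AKR1C3 and GPX7 did not. In hypoxia 45 of the 80 were called lower and 20 higher in WT, 43 and 11 in MIR210-KO, and 43 and 10 in MIR210HG-KO. Over all genes tested, 30.7%, 29.5% and 28.3% were called lower and 29.6%, 29.3% and 25.7% higher in these comparisons, and the counts of each list below are to be read against these shares. Of the list of thioredoxins, peroxiredoxins and related reductases, 12 of 16 were lower in WT, 11 in MIR210-KO and 12 in MIR210HG-KO, with medians of -0.59, -0.45 and -0.55 beside 0.00, 0.04 and 0.03 over all genes. Its leading genes were the methionine sulfoxide reductase MSRB1 (-1.37 ± 0.08 in WT, -0.96 ± 0.08 in MIR210-KO, and from 38.5 to 19.2 CPM in MIR210HG-KO) and PRDX4, the peroxiredoxin of the endoplasmic reticulum (-1.05 ± 0.07 in WT). TXNIP, which binds and inhibits thioredoxin, rose in all 3 genotypes, by 0.43 ± 0.07 in WT (adjusted p = 5.24e-06), 0.76 ± 0.08 in MIR210-KO (adjusted p = 4.80e-10) and 1.13 ± 0.07 in MIR210HG-KO.

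Glutathione enzymes were lower in 13, 11 and 12 of 24 tested and higher in 3, 6 and 3, in WT, MIR210-KO and MIR210HG-KO, beside 28.3% to 30.7% of all genes lower and 25.7% to 29.6% higher. GPX1, a glutathione peroxidase, went from 289.7 to 108 CPM in WT (-1.42 ± 0.08), from 403 to 191 CPM in MIR210-KO (-1.08 ± 0.08) and from 287 to 114 CPM in MIR210HG-KO (-1.33 ± 0.08). Superoxide and peroxide enzymes were lower in 4, 4 and 5 of 5, led by PARK7 (-0.90, -0.86 and -0.84, each ± 0.07), a redox-sensing chaperone. The adjusted p of each change printed for these 3 lists was at most 1.02e-11, except for TXNIP in WT and MIR210-KO.

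**Figure D5:**
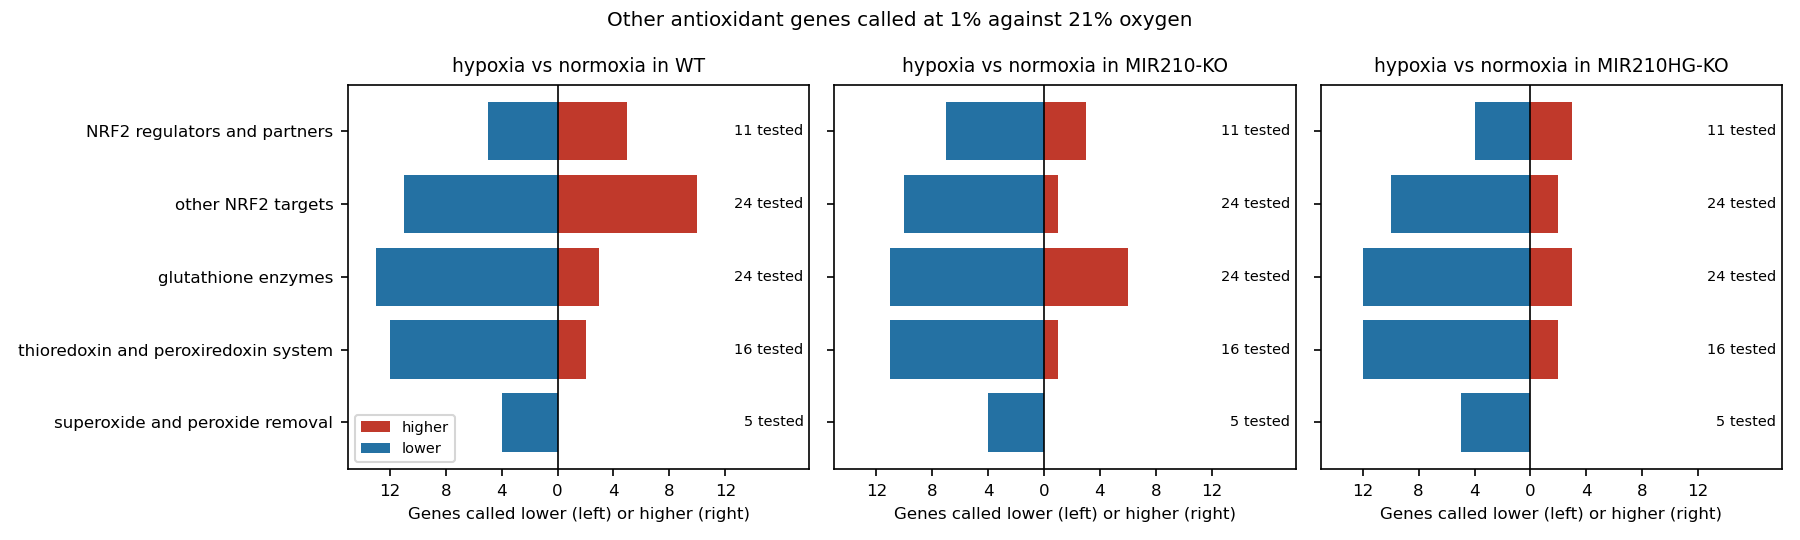
Number of genes called lower (left, blue) or higher (right, red) at 1% against 21% oxygen in 5 lists of other antioxidant genes, with the number tested at the right of each row; 1 panel per genotype. The thioredoxin and peroxiredoxin row reaches 12, 11 and 12 genes lower, and the row of other NRF2 targets reaches 10 genes higher in WT against 1 and 2 in the knockouts.

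In WT targets of NRF2 outside the 10 genes moved in both directions, and in the knockouts more were called lower than higher. Of 11 regulators and partners, 5 were called higher and 5 lower in WT, 3 and 7 in MIR210-KO, 3 and 4 in MIR210HG-KO. Of 24 other targets tested, 10 were called higher and 11 lower in hypoxia WT, 1 and 10 in MIR210-KO, and 2 and 10 in MIR210HG-KO, and the difference between these counts was not tested. Of all genes, 29.6%, 29.3% and 25.7% were called higher and 30.7%, 29.5% and 28.3% lower. HMOX1 (heme oxygenase 1), which breaks down heme, went from 25.5 to 52.9 CPM in WT, a change of 1.05 ± 0.07 (adjusted p = 7.71e-14). It went from 40.8 to 26.2 CPM in MIR210-KO (-0.64 ± 0.07, adjusted p = 6.19e-09) and from 26.4 to 13.97 CPM in MIR210HG-KO (-0.92 ± 0.08, adjusted p = 1.48e-11). The interactions of HMOX1 were -1.69 ± 0.10 and -1.97 ± 0.11 (adjusted p = 1.56e-13 and 1.36e-14). MAFF, a small MAF protein, rose from 3.27 to 15.8 CPM in WT (2.27 ± 0.11, adjusted p = 4.93e-17). It rose by 0.74 ± 0.13 in MIR210-KO and by 1.02 ± 0.13 in MIR210HG-KO, with interactions of -1.53 ± 0.17 and -1.25 ± 0.18. MAFK, another small MAF, had interactions of -1.26 ± 0.12 and -0.97 ± 0.12 (adjusted p = 1.98e-09 and 8.42e-07). RBX1, the ring protein of the ubiquitin ligase that takes NRF2 from KEAP1, changed by -1.11, -0.92 and -0.97 in WT, MIR210-KO and MIR210HG-KO, each ± 0.07.

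Between genotypes these genes moved in both directions. Set against WT in normoxia, 20 of the 80 were called higher and 28 lower for MIR210-KO, where 22.6% and 21.6% of all genes were called, and 12 and 21 for MIR210HG-KO, where 15.6% and 19.6% were. In hypoxia 25 were higher and 30 lower for MIR210-KO, against 28.2% and 27.7% of all genes, and 21 and 28 for MIR210HG-KO, against 24.4% and 30.2%. The balance in hypoxia turned without the 4 libraries that stood apart, to 31 higher and 27 lower for MIR210-KO and 34 higher and 23 lower for MIR210HG-KO. Of all 19952 genes tested, 10769 and 10646 were then called, and 51.1% and 46.2% of these calls were higher. ABCC2, an exporter of conjugates, stood at 7.52 CPM in normoxia MIR210-KO and 1.59 CPM in WT (2.25 ± 0.15, adjusted p = 8.59e-14), and was higher in hypoxia too (2.01 ± 0.14). SLC7A11, the cystine importer that feeds glutathione synthesis, stood at 115 CPM in normoxia WT, 55.0 CPM in MIR210-KO (-1.06 ± 0.09) and 45.7 CPM in MIR210HG-KO (-1.33 ± 0.09). CHAC1, which degrades glutathione, stood at 42.6 CPM in normoxia WT, 6.68 CPM in MIR210-KO (-2.67 ± 0.11) and 3.50 CPM in MIR210HG-KO (-3.61 ± 0.12). MGST1, a membrane glutathione transferase, stood at 33.8 CPM in normoxia WT, 64.9 CPM in MIR210-KO and 9.90 CPM in MIR210HG-KO, where it differed from WT by -1.77 ± 0.10 (adjusted p = 2.84e-15). Catalase (CAT), which breaks down hydrogen peroxide, and CCS, the copper chaperone of superoxide dismutase, were lower in normoxia MIR210-KO than in WT, at -0.67 ± 0.07 and -1.03 ± 0.09.

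Across the 24 libraries, which share genotype and oxygen level, the profile of TXN was nearest to that of PRDX1 among the 10 genes, with a Pearson r of 0.89 on log2(CPM + 1). NQO1 was nearest to TXN (0.73), KEAP1 to TXN (0.86) and SQSTM1 to KEAP1 (0.85). NFE2L2 had no positive r with any of the other 9, from -0.05 with GCLM to -0.82 with PRDX1. Of 14536 protein-coding genes, SYAP1 and HTATIP2 were most like NQO1 (r = 0.981 and 0.980), CTSC and MECR most like SRXN1 (0.954 and 0.953), and PPT1 and ATPAF1 most like PRDX1 (0.982 and 0.972). HTATIP2 stood at 24.9, 52.0 and 25.8 CPM in normoxia and 20.7, 40.6 and 18.5 CPM in hypoxia, for WT, MIR210-KO and MIR210HG-KO, so it too was highest in MIR210-KO. PPT1 stood at 148, 153 and 143 CPM in normoxia and 75.8, 114 and 99.2 CPM in hypoxia, in the same order as PRDX1 in hypoxia.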

How the data were processed

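Messenger RNA was sequenced from 24 HEK293T libraries in 6 groups of 4. What the authors deposited are unnormalised counts of reads, in 1 table for normoxia and 1 for hypoxia, over 58735 genes. Per the submitters' processing notes, the genome was GRCh38 and the tools named, with no role given, were edgeR 3.24.3, DESeq2 1.20.0, STAR 2.6.1d and featureCounts 1.5.0-p3. The strand setting and annotation release are not given in the sources used here. Gene lengths and positions come from the deposited tables.

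Counts were analysed with edgeR 4.0.16 in R 4.3.3. The filter filterByExpr left 19952 genes, scaled by TMM. All 24 libraries entered a single quasi-likelihood fit with 1 term per group, and 11 contrasts were tested, two-sided, with Benjamini-Hochberg adjustment over all genes tested. Genes were called at 0.05. Errors of log2 changes are standard errors, and those of CPM are standard deviations over 4 libraries. The test was tried on simulated counts first. Depth was 25556776 to 37858947 counts per library. No sample column was left unmapped.

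The 10 genes, the 5 lists, the 4 libraries left out together and the gene length covariate were chosen with earlier results of these data known, so no list is independent evidence. All 10 genes were tested in every comparison, and not every value is printed. From each list the rule named the 2 called genes that changed most, where the higher group reached 5 CPM, and not all are printed. Some genes so named are also printed for comparisons in which the rule did not name them. Among them are the hypoxia changes of TXNIP in WT and MIR210-KO. Those of MAFF in the knockouts are others, with hypoxia means of 4.27 CPM in MIR210-KO and 4.67 CPM in MIR210HG-KO. Likeness was ranked for the 3 genes of widest range. The replicate numbers of the labels do not pair the libraries. Alternatives were no filter, RLE or upper quartile factors, DESeq2 1.42.0, fits to the groups compared, a replicate block, the gene length covariate, a 2 Mb neighbourhood, the looser promoter core, and leaving out each library or the 4 together. Values of 1 marker and 1 pathway gene are not reported here.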

Additional observations from a re-analysis of the deposited data

Results flagged for a closer look

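In 5 of 60 sets of 4 libraries (10 genes in 6 groups), 1 library lay far from the other 3 by Dixon's test, where chance alone flags about 1 in 20. KEAP1 stood at 47.5 CPM in hypoxia MIR210-KO 2, against 52.6 to 53.3 CPM in the other libraries of that group. NQO1 stood at 5.60 CPM in normoxia WT 1, against 4.52 to 4.68. GCLC stood at 44.9 CPM in hypoxia MIR210-KO 1, against 43.5 to 43.7. SRXN1 stood at 2.93 CPM in hypoxia WT 2, against 2.49 to 2.53. TXN stood at 428 CPM in normoxia MIR210HG-KO 3, against 352 to 364, and this library had also stood apart in earlier results.

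The response to oxygen differed from that of WT, by the interaction test, for NFE2L2 (-0.60 in MIR210-KO and -0.43 in MIR210HG-KO), PRDX1 (0.81 and 0.65), SQSTM1 (-0.42 and -0.29) and, in MIR210-KO, GCLM (-0.51).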

How the results depend on the processing

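Over the log2 changes of the 10 genes in 11 comparisons, leaving out each of the 24 libraries in turn left 2584 values on the same side of the threshold, moved 46 below it and 10 above it, and reversed 0. The other 8 alternatives kept 835, moved 24 below and 20 above, and reversed 1. A change of sign was counted as reversed only where either fit called the gene. Uncalled values that changed sign were counted as kept. An example is the TXN interaction of MIR210-KO, at -0.09 and at 0.10 without the 4 libraries that stood apart. The reversed value was the TXN interaction of MIR210HG-KO, which went from -0.04 to 0.24 (adjusted p = 0.00417) without the 4 libraries that stood apart. Without them the genes called for that interaction also went from 3 to 5 of the 10, and from 26 to 42 of the other antioxidant genes. Over all 19952 genes tested the calls went from 4486 to 4804. Counts of called genes also moved by over 1.5 times for MIR210HG-KO against MIR210-KO. In normoxia 4 of the 10 genes were called, 2 with no low-count filter and 2 to 6 on leaving out a library (2 without normoxia MIR210-KO 3). The normoxia call of GCLM (-0.18, adjusted p = 0.0397) was lost in many leave-outs, among them that of normoxia MIR210HG-KO 1 (-0.12, adjusted p = 0.189). It was also lost with the gene length covariate (-0.18, adjusted p = 0.0532). In hypoxia 9 were called, and 5 to 9 on leaving out a library (5 without hypoxia MIR210HG-KO 2). There the call of GCLM was lost in 6 of 24 leave-outs and that of TXN in 11. The replicate numbers did not pair the libraries: same-number pairs had a median correlation of 0.00 (from -0.29 to 0.26). With a replicate block 8 of the 10 genes were called for hypoxia against normoxia in MIR210HG-KO, in place of 7. The added call was higher, and no other of the counts in the 11 comparisons changed. Upper quartile scaling moved the share of calls that were higher from 45.6% to 55.8% for the MIR210HG-KO interaction over all genes. Within 2 Mb, the SRXN1 neighbours had a median of -0.43 in MIR210-KO and -0.14 in MIR210HG-KO against WT in normoxia.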
